A study of Mus musculus with 8 samples.

Results

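The motile cilia axoneme genes were examined as the rows of the count table named for axonemal families (Dnah, Dnaic, Dnai, Dnaaf, Drc, Cfap, Rsph, Tekt, Spef, Spag, Hydin and Ttll), chosen by name and by a mean raw count of at least 10 over the 8 libraries. Of the 16397 genes in the table, 65 matched a family name and 62 reached the count, of which 61 could be tested. The rule used the family name and the mean count over both groups and not the contrast, but the families were proposed with earlier results of these data known. Just inside the count limit lay Ttll13 (mean count 13.25) and Cfap46 (14.75), and just outside it lay Rsph14 (7.875), Ttll8 (7.75) and Dnah17 (7.25). In 6 members, Cfap221, Cfap46, Dnaaf1, Tekt4, Tekt5 and Ttll6, the mean count was under 10 in the IUGR group alone, so that these members reached the limit through the sham group. Cfap46 carries an identifier with no match in the annotation and was described but not tested.

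RNA was sequenced from hippocampi of C57Bl/6J mouse embryos at embryonic day 15.5, 4 from the intrauterine growth restriction (IUGR) group and 4 from sham controls. IUGR was induced in the dam by a micro-osmotic pump that delivered U-46619, a thromboxane A2 analog, during gestation, and sham dams carried a pump with vehicle. The study used embryos of both sexes. The IUGR libraries all carry the prefix T1 (T1-1, T1-3, T1-4, T1-5) and the sham libraries the prefixes S1 (S1-4, S1-6) and S3 (S3-1, S3-4). The labels do not explain these prefixes, and if they mark a dam or litter, that cannot be told apart from the group. They also do not say that the samples of a group came from separate litters, so the p-values measure the spread between these samples only.

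The axoneme is the microtubule skeleton of the cilium. In motile cilia a ring of doublet microtubules carries outer and inner dynein arms, the motors that make the doublets slide, while radial spokes and the central apparatus pass signals to the arms and the nexin-dynein regulatory complex (N-DRC) links neighbouring doublets and turns sliding into bending. Tektins and other proteins inside the doublet stabilise its wall, and the arms are assembled in the cytoplasm before they enter the cilium. In the embryonic forebrain such cilia are known from the choroid plexus epithelium, which lies next to the hippocampus along the medial wall, and later from ependymal cells, whereas neurons and radial glia carry a primary cilium that lacks most of these parts.

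The totals of the IUGR libraries ranged from 12919546 to 16672463 counts and those of the sham libraries from 11212632 to 15405748. Levels are given as CPM, the count of a gene scaled to a library of 1000000 counts. A count of 3 in 1 library corresponded to 0.184 to 0.277 CPM, the limit that a count of 0 allows. This limit covers counting error only. Pairs of libraries within a group differed far beyond sampling noise, with a chi-square per degree of freedom of at least 27.7, so that no library was counted as a copy of another.

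Many structural members were lower in IUGR hippocampi, and no member was called higher. In the quasi-likelihood test of edgeR, with p-values adjusted by Benjamini-Hochberg over 13707 protein-coding genes, 16 of the 61 tested members were called lower, beside 1.36% of all tested genes. Of the 56 tested members left without those that reached the count limit through the sham group, 13 were called lower. A call means an adjusted p no higher than 0.05 together with a log2 fold change no smaller than 1 in size. The called members were Dnaic2, Cfap57, Drc1, Drc7, Rsph1, Rsph10b, Cfap61, Tekt1, Tekt4, Tekt5, Cfap45, Cfap52, Spag8, Dnaaf1, Cfap58 and Cfap70. No member was called higher, where 0.102% of all tested genes were, and neither the Wald test of DESeq2 nor limma-voom called one. An unadjusted p under 0.05 was found for 39 members, of which 1, Ttll1, was above sham, and for 11.1% of all tested genes. In 27 tested members each IUGR library lay below each sham library, beside 5.06% of all tested genes, and in 1 member, Ttll1, each lay above, beside 2.08%. The fitted log2 fold change was below 0 in 54 members and had a median of -1.31, with a range from -3.44 to 0.30, where the median of all tested genes was -0.02. Without the 5 tested members that reached the count limit through the sham group, 23 lay below sham without overlap and the median was -1.11. The size of the called set depended on single libraries and ranged from 3 to 31 members when each library was left out in turn, with 3 without S1-4, 4 without S3-4, 5 without S3-1, 5 without T1-1, 6 without T1-4, 8 without S1-6, 12 without T1-3 and 31 without T1-5. In bulk tissue, fewer ciliated cells and less RNA per ciliated cell cannot be told apart.

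**Figure D1:**
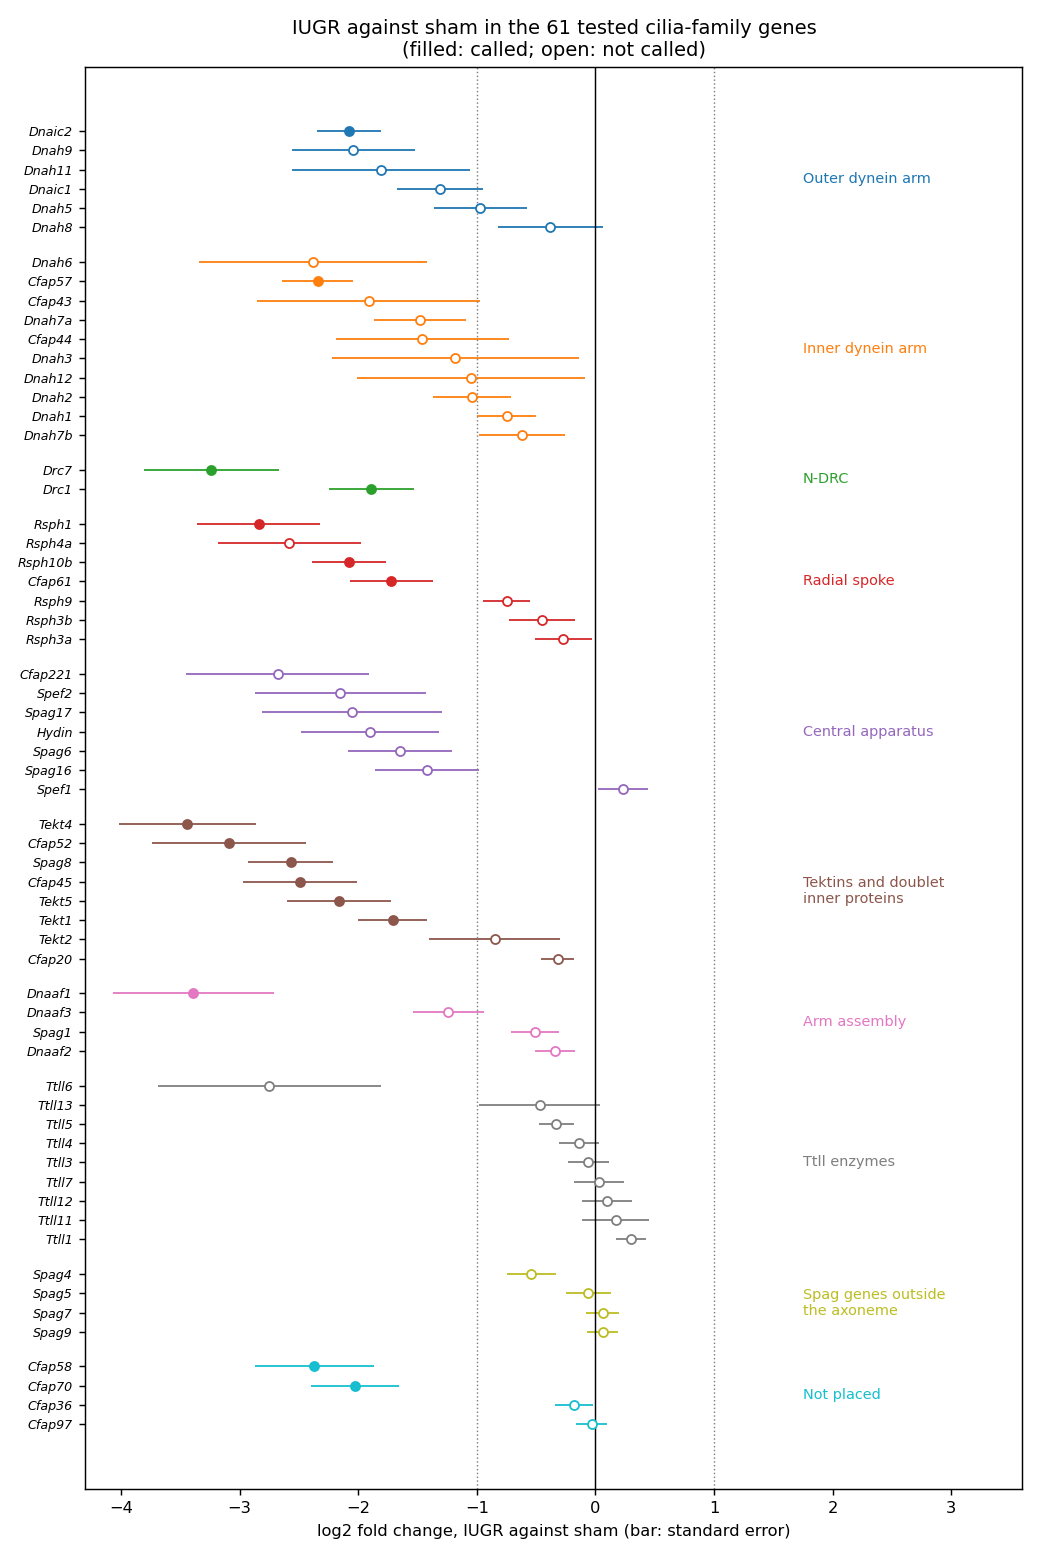
Log2 fold change of IUGR against sham for each of the 61 tested members, grouped by axoneme part, with the standard error of the fit; filled points mark the 16 called members. In each of the 6 structural parts most points lie left of -1, and the Ttll enzymes lie around 0 except for Ttll6 at -2.75.

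Promoters were searched for the letters bound by the regulatory factor X (RFX) family and by forkhead factors, which are known to drive ciliary genes together with Foxj1. The core of the RFX motif, the letters GTTGCC on either strand, was present in 20 of 57 member promoters (35.1%) belonging to 19 of the 52 members with a promoter entry, and in 13% of the 13264 promoters of tested genes, of the same length (250 bases before to 50 bases after the start). Among the 13 called members with an entry it was present in 6, Cfap58, Dnaic2, Drc1, Spag8, Tekt1 and Tekt4. A pair of cores counted only in the order GTTNCC, 2 bases, GGNAAC was present in 0 of 57 member promoters and in 0.543% of the promoters of tested genes. The opposite order, which the Spag16 stretch holds, was not counted. The forkhead core GTAAACA, searched on both strands, was present in 2 of 57 member promoters (3.51%), in 2.44% of the promoters of tested genes and in 3.65% of all 32851 promoters. The motifs were chosen after results of these data were known, and other spacings of the pair and a longer core were tried in a first look and are not given. Promoters of 1 gene with several starts overlap, and these shares are descriptions. Entries were not matched for Cfap46, Cfap97, Dnaaf1, Dnah3, Rsph1, Rsph10b, Rsph4a, Spag1, Ttll1 and Ttll11. The following stretches come from the RefSeq promoters of GRCm38.p6, lie upstream of both the RefSeq start and the GENCODE gene, and are written 5′ to 3′ on the strand of the gene with the core in capitals. The first 3 belong to called members. Spag16 and Hydin of the central apparatus, with low levels in IUGR but no call by edgeR over all libraries, are shown for comparison. The Wald test of DESeq2 called both lower (adjusted p = 0.0361 for Spag16 and 0.0154 for Hydin). The cores of the called members Spag8, Tekt1 and Tekt4 did not lie upstream of both starts and are not printed.
Dnaic2, chr11:114727368-114727407, plus strand: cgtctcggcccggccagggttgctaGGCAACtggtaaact
Drc1, chr5:30281357-30281387, plus strand: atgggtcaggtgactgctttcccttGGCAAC
Cfap58, chr19:47937628-47937674, plus strand: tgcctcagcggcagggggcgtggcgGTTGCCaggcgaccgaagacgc
Spag16, chr1:69826834-69826889, plus strand: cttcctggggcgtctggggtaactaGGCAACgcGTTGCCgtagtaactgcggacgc
Hydin, chr8:110266939-110266976, plus strand: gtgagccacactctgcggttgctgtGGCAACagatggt
The core began 26 bases upstream of the RefSeq start in Dnaic2, 11 in Drc1, 59 in Cfap58 and 13 in Hydin, and 15, 6, 22 and 13 bases upstream of the GENCODE gene. The Spag16 stretch holds the letters in both orientations. A match is a description of the letters and not a bound site.

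Among the 6 tested outer dynein arm members, 1 was called lower, 2 had no overlap between the groups and the median log2 fold change was -1.56. Without T1-5, 3 were called. The called member was Dnaic2 (chr11:114727408-114757889), an intermediate chain at the base of the outer arm. Its levels were 16.5, 11, 8.39 and 14.5 CPM in the sham libraries S1-4, S1-6, S3-1 and S3-4 and 2.92, 3.2, 2.28 and 3.5 CPM in the IUGR libraries T1-1, T1-3, T1-4 and T1-5. The 4 IUGR libraries lay close together and the lowest sham library was well above the highest of them. The log2 fold change was -2.08 ± 0.27 (SE, n = 4 per group, adjusted p = 0.00998, edgeR). Dnaic2 was also called in each of the 8 fits that left out 1 library. The other intermediate chain, Dnaic1, was at 4.35 ± 1.05 CPM in sham and 1.76 ± 0.713 CPM in IUGR (SD, n = 4), without overlap, but was not called (log2 fold change -1.31 ± 0.36, adjusted p = 0.123, edgeR). The Wald test of DESeq2 called it (adjusted p = 0.0412). Dnaic1 shares exon sequence with Enho on the opposite strand, and because the strand setting of the counting is not stated, reads of the pair may not be separated.

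The outer arm heavy chains, the motor subunits themselves, behaved less evenly. Dnah9, the most abundant of them by count, was at 71.0, 58.3, 28.2 and 70.8 CPM in S1-4, S1-6, S3-1 and S3-4 and at 7.94, 14.0, 4.21 and 29.2 CPM in T1-1, T1-3, T1-4 and T1-5. The sham library S3-1 and the IUGR library T1-5 met at nearly the same level, and the other libraries were separated. The log2 fold change of Dnah9 was -2.04 ± 0.52 (SE, adjusted p = 0.0924, edgeR). Dnah11, a heavy chain of the same type, was at 26.0 CPM in T1-5 and between 1.52 and 5.41 CPM in the other IUGR libraries, against 15.8 to 43.9 CPM in sham, and was not called (adjusted p = 0.378, edgeR). Dnah5 was at 8.80 ± 3.35 CPM in sham and 4.46 ± 2.18 CPM in IUGR (SD, n = 4; adjusted p = 0.345, edgeR). Dnah8, best known from sperm, had a log2 fold change of -0.38 ± 0.44 (SE). Of the 11 tested dynein heavy chains of both arms, none was called lower by edgeR although 7 had an unadjusted p under 0.05, 1 had no overlap between groups (Dnah7a), and the median log2 fold change was -1.05. None was called higher. Without T1-5, 6 were called lower (Dnah6, Dnah7a, Dnah7b, Dnah9, Dnah11 and Dnah12), and over all libraries the Wald test of DESeq2 called Dnah7a and Dnah9 and limma-voom called Dnah9. Dnah9 overlaps exons of Gm12296 and Dnah11 exons of Cdca7l, both on the other strand, with the same limit on their reads as for Dnaic1.

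**Figure D2:**
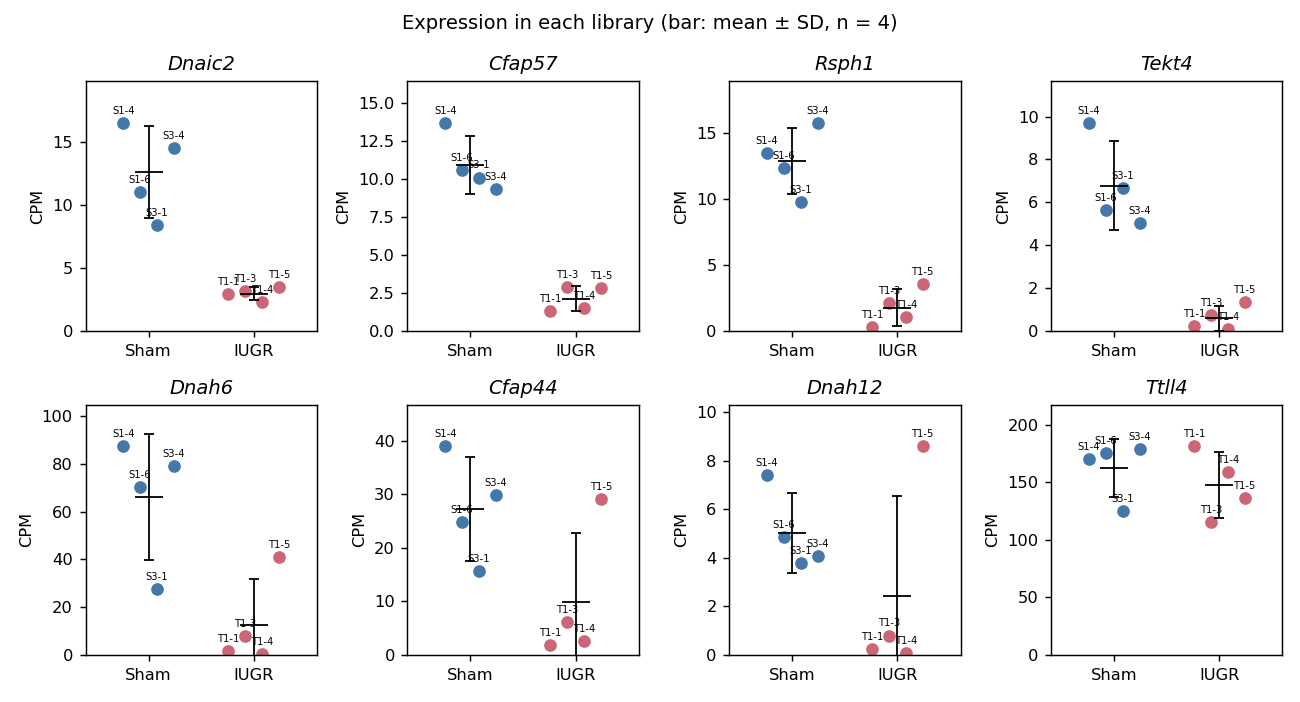
CPM of 8 members in each library, with the mean and SD of the 4 libraries of each group. Dnaic2, Cfap57, Rsph1 and Tekt4 are low in all 4 IUGR libraries, whereas for Dnah6, Cfap44 and Dnah12 the IUGR library T1-5 lies among or above the sham libraries, and the Ttll4 groups overlap.

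All 10 inner dynein arm members had a log2 fold change below 0, with a median of -1.32, and 1 was called, against 7 without T1-5. Cfap57 (chr4:118554551-118620777), a protein associated with the inner arms, was at 13.7, 10.6, 10.1 and 9.34 CPM in S1-4, S1-6, S3-1 and S3-4 and at 1.35, 2.89, 1.52 and 2.81 CPM in T1-1, T1-3, T1-4 and T1-5. Every IUGR library was far below every sham library. Its log2 fold change was -2.34 ± 0.30 (SE, adjusted p = 0.00998, edgeR), and it was called in each of the 8 fits that left out 1 library.

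The heavy chains of the inner arm and their tether proteins fell apart by IUGR library. Dnah6, the most abundant inner arm member by count, was at 87.3, 70.3, 27.7 and 79.0 CPM in S1-4, S1-6, S3-1 and S3-4 and at 1.5, 8.05, 0.506 and 40.8 CPM in T1-1, T1-3, T1-4 and T1-5. T1-5 was above S3-1, and T1-4 was the lowest library of all. The fitted log2 fold change was -2.38 ± 0.96 (SE, adjusted p = 0.353, edgeR), and without T1-5 it was -4.24 and called. Dnah12 was at 7.40, 4.85, 3.77 and 4.06 CPM in the sham libraries in the same order and at 0.225, 0.799, 0.0843 and 8.59 CPM in the IUGR libraries. T1-5 thus held the highest Dnah12 level of the 8 libraries, while the remaining IUGR libraries were under 1 CPM. Dnah3 showed the same order, at 8.06 CPM in T1-5, between 0 and 0.983 CPM in the other IUGR libraries, and between 1.65 and 7.30 CPM in sham. It overlaps exons of Lyrm1 on the other strand. Cfap44, which tethers an inner arm to the doublet, was at 29.0 CPM in T1-5 and between 1.87 and 6.15 CPM in the other IUGR libraries, against 15.6 to 38.9 CPM in sham. Its partner Cfap43 was at 27.4 CPM in T1-5 and between 0.421 and 4.73 CPM in the others, against 23.8 to 43.7 CPM in sham. Neither was called over all 8 libraries (adjusted p = 0.535 for Cfap44 and 0.521 for Cfap43, edgeR).

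Dnah2 was at 15.5 ± 4.98 CPM in sham and 7.53 ± 2.94 CPM in IUGR (SD, n = 4; adjusted p = 0.202, edgeR). Dnah1, also an inner arm heavy chain, had a log2 fold change of -0.75 ± 0.25 (SE, adjusted p = 0.227, edgeR). Dnah7a and Dnah7b are near-identical copies, so the division of reads between them is uncertain. Dnah7a was at 2.81 ± 0.749 CPM in sham and 0.998 ± 0.490 CPM in IUGR (SD, n = 4) without overlap between the groups, and Dnah7b was at 17.1 ± 3.05 and 11.1 ± 7.08 CPM. Neither copy was called (adjusted p = 0.107 for Dnah7a and 0.679 for Dnah7b, edgeR).

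Both N-DRC genes that the family names hold, Drc1 and Drc7, were called lower, while subunits under other names differed in call. Ccdc65 and Iqcg were called lower with log2 fold changes of -2.12 ± 0.33 and -1.76 ± 0.25 (SE, adjusted p = 0.0171 and 0.0111, edgeR), and Iqca and Gas8, at -3.12 ± 0.83 and -0.09 ± 0.16, were not (adjusted p = 0.109 and 1, edgeR). Drc7 (chr8:95055103-95078141) was at 17.4, 12.6, 9.49 and 15.1 CPM in S1-4, S1-6, S3-1 and S3-4 and at 0.3, 2.7, 0.421 and 2.21 CPM in T1-1, T1-3, T1-4 and T1-5, a log2 fold change of -3.24 ± 0.57 (SE, adjusted p = 0.0252, edgeR). Drc1, a scaffold of the complex, was at 20.2, 11.3, 12 and 13.9 CPM in sham and at 2.02, 5.10, 2.36 and 5.86 CPM in IUGR, a log2 fold change of -1.89 ± 0.36 (SE, adjusted p = 0.0321, edgeR). In both genes the groups were separated, and T1-1 and T1-4 were the lowest libraries. Drc7 was called in 5 and Drc1 in 2 of the 8 fits that left out 1 library.

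Of the 7 tested radial spoke members, 3 were called lower and 6 had no overlap between the groups, with a median log2 fold change of -1.72. Rsph1 (chr17:31255019-31277383), a spoke head protein, was at 13.5, 12.4, 9.81 and 15.8 CPM in S1-4, S1-6, S3-1 and S3-4 and at 0.3, 2.15, 1.10 and 3.57 CPM in T1-1, T1-3, T1-4 and T1-5. The highest IUGR library was below the lowest sham library, and the log2 fold change was -2.84 ± 0.52 (SE, adjusted p = 0.0278, edgeR). Rsph10b, another spoke head protein, fell from 12.4 ± 2.77 to 2.93 ± 1.11 CPM (SD, n = 4; adjusted p = 0.0128, edgeR), and shares exon sequence with Pms2 on the same strand, so part of its reads may belong to Pms2. Cfap61, at the base of the spoke, fell from 10.2 ± 1.78 to 3.08 ± 1.65 CPM (SD, n = 4; adjusted p = 0.0403, edgeR) and overlaps an exon of Crnkl1 on the other strand. Rsph4a, a spoke head protein and the most abundant of the radial spoke members by count, was at 28.0 ± 6.26 CPM in sham and 4.63 ± 4.13 CPM in IUGR (SD, n = 4), without overlap, but was not called over all libraries (log2 fold change -2.58 ± 0.60, adjusted p = 0.0692, edgeR). This depended on the library and the tool. Rsph4a was called by edgeR without T1-5, by the Wald test of DESeq2 (adjusted p = 0.0183) and by limma-voom (adjusted p = 0.0215). Rsph9 was at 19.1 ± 3.24 and 11.4 ± 2.30 CPM (SD, n = 4; adjusted p = 0.115, edgeR). The spoke stalk copies Rsph3a and Rsph3b, near-identical and thus uncertain, had log2 fold changes of -0.27 ± 0.24 and -0.45 ± 0.28 (SE).

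No central apparatus member was called by edgeR, although 4 of the 7 tested had no overlap between the groups, 6 had an unadjusted p under 0.05 and the median log2 fold change was -1.90. This count of 0 depended on T1-5 and on the tool, since 6 of the 7 (Cfap221, Hydin, Spag6, Spag16, Spag17 and Spef2) were called without T1-5, and 4 by the Wald test of DESeq2 and 3 by limma-voom over all libraries. Cfap221, which reached the count limit through the sham group, is among these 6, 4 and 3 and among the members without overlap. Spag6, which carries a different symbol (Spag6l) in the annotation used here, is a protein of a central apparatus projection. It was at 39.7, 25.8, 27.6 and 31.4 CPM in S1-4, S1-6, S3-1 and S3-4 and at 3.97, 11.2, 4.80 and 19.6 CPM in T1-1, T1-3, T1-4 and T1-5. The groups were separated but T1-5 lay close to the lowest sham library, and the log2 fold change was -1.65 ± 0.44 (SE, adjusted p = 0.109, edgeR). Hydin, a large protein of another projection, was at 19.8 ± 9.51 CPM in sham and 5.29 ± 4.55 CPM in IUGR (SD, n = 4; adjusted p = 0.174, edgeR), with T1-5 at 11.9 CPM above S3-1 at 6.59 CPM. Spef2 was at 23.5 ± 4.04 and 5.28 ± 6.88 CPM (SD, n = 4; adjusted p = 0.222, edgeR), with 15.4 CPM in T1-5 and no overlap. Spag17 and Spag16 had log2 fold changes of -2.05 ± 0.76 and -1.42 ± 0.44 (SE), and Spag17 overlaps exons of Wdr3 on the other strand. Cfap221, a low member, had counts of 0 in T1-1 and T1-4, which allow up to 0.225 and 0.253 CPM, and was at 0.369 CPM in T1-3 and 0.989 CPM in T1-5, against 1.92 to 2.5 CPM in sham (log2 fold change -2.68 ± 0.77, adjusted p = 0.145, edgeR). Cfap46 was at 1.62 ± 0.368 CPM in sham and 0.682 ± 0.415 CPM in IUGR (SD, n = 4). Spef1, which binds central pair microtubules and is also found in other epithelial microtubule arrays, was at 51.2 ± 7.75 CPM in sham and 60.0 ± 18.4 CPM in IUGR (SD, n = 4; log2 fold change 0.23 ± 0.21, adjusted p = 0.959, edgeR), with overlapping groups. Spef1 shares exon sequence with Cenpb on the same strand and with Cdc25b on the other strand, so part of its reads may belong to them.

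Of the 8 tested tektins and doublet inner proteins, 6 were called lower and 6 had no overlap, with a median log2 fold change of -2.32. Without Tekt4 and Tekt5, which reached the count limit through the sham group, 4 of 6 were called. Tekt4 (chr17:25454615-25476602), a filament protein of the doublet, was at 9.71, 5.63, 6.67 and 5.06 CPM in S1-4, S1-6, S3-1 and S3-4 and at 0.225, 0.738, 0.0843 and 1.37 CPM in T1-1, T1-3, T1-4 and T1-5. The log2 fold change was -3.44 ± 0.58 (SE, adjusted p = 0.0229, edgeR), in a gene that reached the count limit through the sham group and was at or under the level of 3 counts in T1-1 and T1-4. Spag8 (chr4:43651335-43653594), inside the doublet, was at 14.1, 8.22, 11.5 and 8.41 CPM in sham and at 0.974, 2.46, 1.10 and 2.51 CPM in IUGR. It was called in each fit that left out 1 library, and its log2 fold change was -2.57 ± 0.36 (SE, adjusted p = 0.0106, edgeR). Tekt1 was at 25.8, 16.3, 26.0 and 17.7 CPM in sham and at 4.05, 7.81, 5.06 and 9.28 CPM in IUGR, a log2 fold change of -1.71 ± 0.29 (SE, adjusted p = 0.023, edgeR). In all 3 genes the groups were separated and T1-3 and T1-5 were the higher IUGR libraries.

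Cfap52, at the inner junction of the doublet, fell from 21.9 ± 3.31 to 2.54 ± 2.52 CPM (SD, n = 4; adjusted p = 0.0475, edgeR), and Cfap45, in the doublet lumen, fell from 13.5 ± 3.09 to 2.38 ± 1.86 CPM (adjusted p = 0.0321, edgeR). Tekt5 fell from 1.95 ± 0.379 to 0.420 ± 0.246 CPM (adjusted p = 0.0411, edgeR), from 2, 12, 4 and 6 counts in T1-1, T1-3, T1-4 and T1-5. Of the 8 fits that left out 1 library, Tekt4 was called in 4, Tekt1, Rsph1 and Cfap70 in 3, Cfap58 in 2, and Cfap45, Cfap52, Cfap61, Dnaaf1 and Tekt5 in 1 each, while Rsph10b was called in 7. Cfap20, a doublet junction protein that is also part of non-motile cilia, was the most abundant member of this part by count and was not called (63.7 ± 9.27 against 51.2 ± 5.03 CPM, SD, n = 4; adjusted p = 0.44, edgeR). Tekt2 was at 4.57 ± 3.05 and 2.53 ± 1.48 CPM (SD, n = 4), with sham libraries from 1.65 to 8.34 CPM.

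Of the 4 dynein arm assembly factors, which fold and join the arms in the cytoplasm, 1 was called by edgeR, Dnaaf1, which reached the count limit through the sham group. Of the other 3, edgeR called 0, and the Wald test of DESeq2 called Dnaaf3. Dnaaf1 was at 2.40, 1.21, 1.33 and 3.85 CPM in S1-4, S1-6, S3-1 and S3-4 and at 0, 0.184, 0.169 and 0.456 CPM in T1-1, T1-3, T1-4 and T1-5, a log2 fold change of -3.39 ± 0.68 (SE, adjusted p = 0.0376, edgeR). Its IUGR levels rest on few counts, the count of 0 in T1-1 allows up to 0.225 CPM, and it overlaps exons of Taf1c on the other strand. Dnaaf3 was at 5.02 ± 1.19 CPM in sham and 2.13 ± 0.555 CPM in IUGR (SD, n = 4) without overlap. It was not called by edgeR (adjusted p = 0.0826) but was by the Wald test of DESeq2 (log2 fold change -1.22, adjusted p = 0.0198). It shares exon sequence with Tnni3 on the same strand. Dnaaf2 and Spag1 had smaller differences, with log2 fold changes of -0.34 ± 0.17 and -0.51 ± 0.20 (SE, adjusted p = 0.529 and 0.336, edgeR). Dnaaf2 overlaps exons of 9330151L19Rik, and Rsph3a of the radial spoke those of E430024P14Rik, on the other strand.

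The tubulin tyrosine ligase-like enzymes, which add glutamate or glycine chains to tubulin in cilia and also in neurons, showed no common direction, with 5 below 0 and 4 above it on the log2 fold change scale. None of the 9 tested was called by edgeR over all libraries, 3 had an unadjusted p under 0.05, and the median log2 fold change was -0.06. Without T1-5, and by limma-voom over all libraries, 1 was called lower, Ttll6. Ttll4, a glutamylase and the most abundant enzyme of the family by count, was at 170.0, 175.0, 125.0 and 179.0 CPM in S1-4, S1-6, S3-1 and S3-4 and at 181.0, 115.0, 159.0 and 136.0 CPM in T1-1, T1-3, T1-4 and T1-5, with interleaved groups. Ttll1, the catalytic subunit of a tubulin polyglutamylase complex, was at 29.2 to 35.8 CPM in sham and 37.3 to 47.3 CPM in IUGR, without overlap and with the largest positive log2 fold change among the members, 0.30 ± 0.13 (SE, adjusted p = 0.423, edgeR). Ttll5 had a log2 fold change of -0.33 ± 0.15 (SE, adjusted p = 0.442, edgeR). Ttll3, a glycylase, Ttll7, Ttll11, Ttll12 and the low member Ttll13 had overlapping groups and log2 fold changes of -0.06, 0.03, 0.17, 0.10 and -0.47, and Ttll3 shares exons with Arpc4 on the same strand. The exception in size was Ttll6, a glutamylase of ciliary tubulin. Its levels were 2.59, 2.77, 1.10 and 2.85 CPM in sham and 0, 0, 0.0843 and 1.29 CPM in IUGR, where the counts of 0 in T1-1 and T1-3 allow up to 0.225 and 0.184 CPM, so that T1-5 lay above S3-1, and the log2 fold change was -2.75 ± 0.94 (SE, adjusted p = 0.239, edgeR). The adjusted p was 0.0109 by edgeR without T1-5 and 0.0406 by limma-voom over all libraries (log2 fold change -4.23). Ttll6 reached the count limit through the sham group.

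None of the 4 tested Spag genes that act outside the axoneme was called by edgeR, and 1 had an unadjusted p under 0.05, Spag4. Spag9, a scaffold of kinase and motor proteins, was at 789 ± 62.2 CPM in sham and 822 ± 100.0 CPM in IUGR (SD, n = 4). Spag5, a mitotic spindle protein, was at 141 ± 9.22 and 135 ± 37.7 CPM, and Spag7 at 56.5 ± 2.82 and 58.9 ± 9.54 CPM. Spag4, a nuclear envelope protein, had a log2 fold change of -0.54 ± 0.21 (SE, adjusted p = 0.315, edgeR). Of the 4 members that were not placed in a part, Cfap58 and Cfap70 were called lower, with log2 fold changes of -2.37 ± 0.50 and -2.03 ± 0.37 (SE, adjusted p = 0.0471 and 0.0265, edgeR). Cfap36 and Cfap97 were at -0.18 ± 0.16 and -0.03 ± 0.13 (SE), and Cfap97 overlaps exons of Snx25 on the other strand.

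Per kilobase of exon, the sham levels of the structural members spanned from 0.131 CPM per kb for Dnah8 to 18.6 CPM per kb for Spef1. The called members Tekt1, Cfap52, Rsph1 and Spag8 lay at 13.2, 9.43, 9.37 and 6.35 CPM per kb in sham and at 4.04, 1.09, 1.30 and 1.06 CPM per kb in IUGR. The heavy chains Dnah6, Dnah9 and Dnah11 lay at 4.99, 3.58 and 2.13 CPM per kb in sham and at 0.959, 0.867 and 0.607 CPM per kb in IUGR. Thus among the structural members the levels of Spef1 and Cfap20, which were not called, ranked above those of the called members in both groups. The level of Spef1 may include reads of Cenpb and Cdc25b.

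The 4 IUGR libraries were not alike. Over the 41 members of the 6 structural parts (outer and inner arms, N-DRC, radial spoke, central apparatus, tektins and doublet proteins), the median level, as a percent of the sham mean of the gene, reached 59.8% in T1-5 but only 26.4% in T1-3, 16.5% in T1-4 and 13.6% in T1-1, against 81.4% in S3-1, 94% in S1-6, 102% in S3-4 and 123% in S1-4. These 41 members include Cfap221, Cfap46, Tekt4 and Tekt5, which reached the count limit through the sham group. T1-1 and T1-4 both lay below T1-3 and T1-5 in 35 of the 41 members. T1-5 was the highest IUGR library in 30 and was above the lowest sham library in 16, and S3-1 was the lowest sham library in 23. With both T1-1 and T1-4 left out, an alternative chosen after seeing the data, 11 members were called lower, of which 10 were among the 16, and the median log2 fold change was -0.81.

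**Figure D3:**
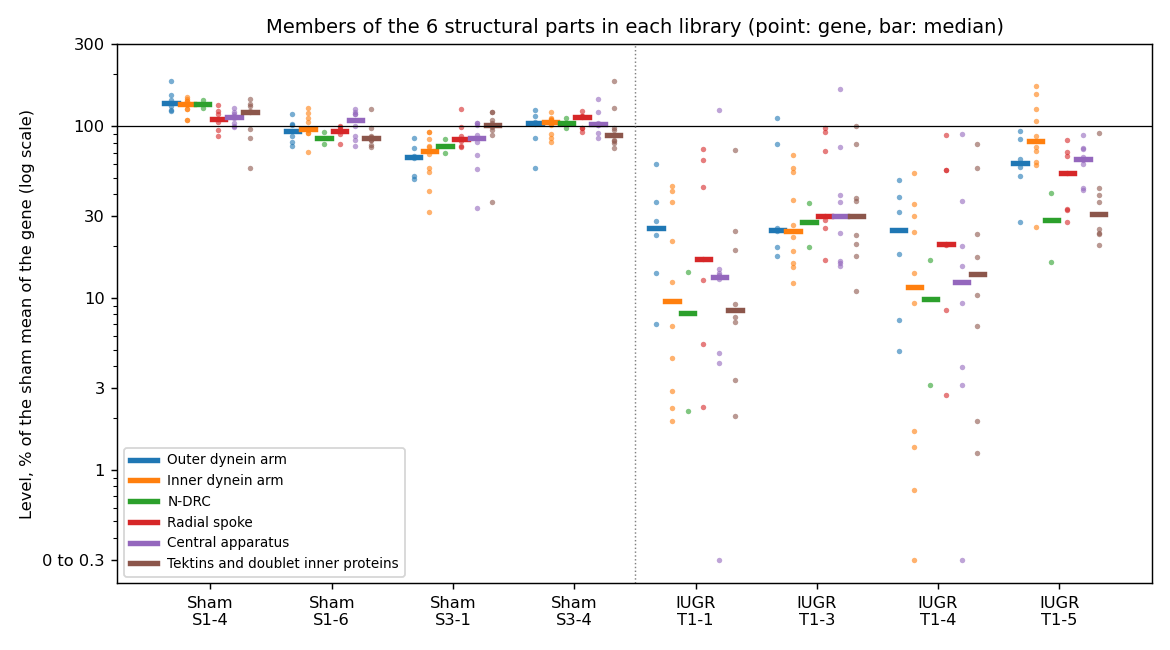
Level of each member of the 6 structural parts in each library as a percent of its sham mean, on a log scale with values from 0 to 0.3% drawn at the lower edge; bars are the medians of each part. In the sham library S3-1 the medians of the parts run from 65.8% (outer dynein arm) to 101% (tektins and doublet proteins), and in T1-5 the inner dynein arm median (81.5%) is well above those of the N-DRC (28.5%) and of the tektins and doublet proteins (30.5%).

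The difference of T1-5 from the rest was uneven over the parts. In T1-5 the median was 75.5% of the sham mean over the 11 dynein heavy chains, 64.3% over the central apparatus, 53% over the radial spoke, 30.5% over the tektins and doublet proteins and 28.5% over the N-DRC. In T1-3 the same parts lay between 27.7% and 37.2%. The parts also differ in gene length. In T1-5 the percent of the sham mean was correlated with exon length across the 40 structural members with a known length (Spearman's rho 0.57 across genes, which share the library and are not independent), with a median of 39.9% in the 21 members under 5 kb and 73% in the 19 members of 5 kb or more. In T1-1, T1-3 and T1-4 the rho was 0.0964, -0.00469 and -0.092. In S3-1 it was -0.511, with medians of 88.6% and 68.6%.

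Length went with the level differently over the whole table. Across all 13707 tested genes the rho was 0.0203 in T1-5 and -0.276 in S3-1, where genes under 5 kb had a median of 107% and longer genes 94.3%. In S3-1, where 9 of the 11 heavy chains had their lowest sham value, this length trend was weaker over all tested genes than over the structural members (rho -0.511). The part of this trend in the result was not tested. In 43 other axonemal genes outside the name families, the longer genes had the higher median in each IUGR library. In T1-5 the rho was 0.611, with 32.2% under 5 kb and 63.8% at 5 kb or more. The rho was 0.322 in T1-1 (8.05% and 33.5%), 0.304 in T1-3 (22.4% and 43.8%) and 0.326 in T1-4 (8.14% and 33.1%). Sham libraries showed such values too, with a rho of 0.365 in S3-4 for these genes (99.5% and 114%) and of 0.34 in S1-4 for the structural members (122% and 131%).

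**Figure D4:**
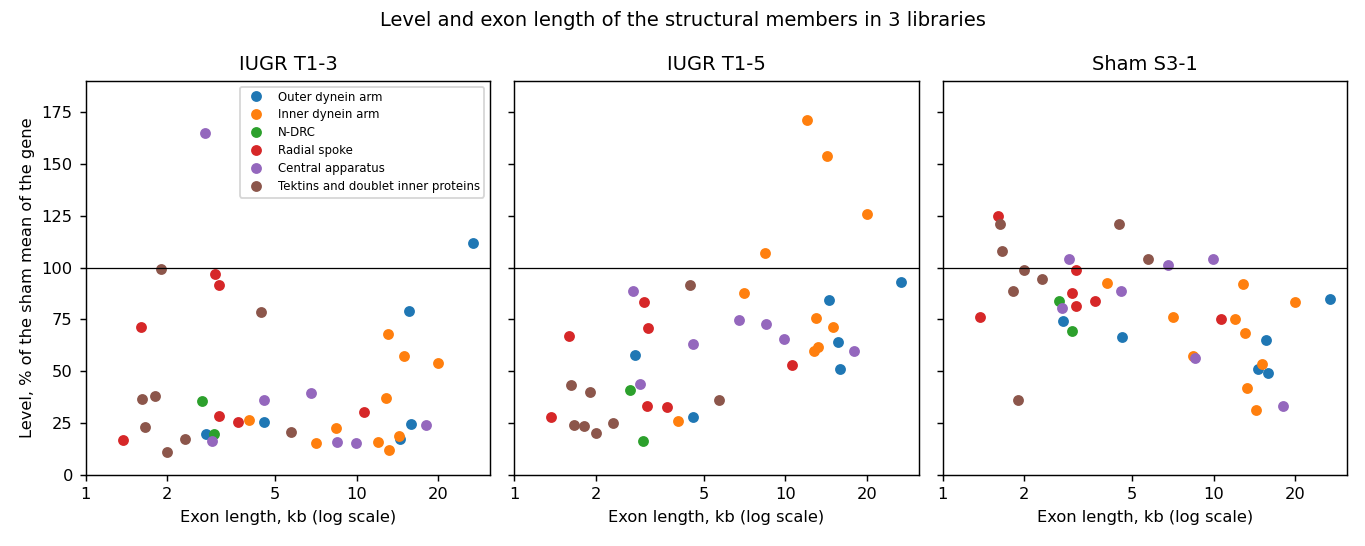
Level as a percent of the sham mean against exon length (log scale) for the 40 structural members with a known length, in the IUGR libraries T1-3 and T1-5 and the sham library S3-1. In T1-5 the short members lie mostly under 50% and 18 of the 19 members of 5 kb or more lie above it, whereas T1-3 shows no such trend and S3-1 shows the opposite one.

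Axonemal genes with other names showed lower levels as well. Of 43 tested genes of motile axonemes outside the name families, listed with earlier results known, 17 were called lower and none higher by edgeR, 35 had no overlap and the median log2 fold change was -2.12. Dynlrb2, a dynein light chain, and Dnali1, an inner arm light intermediate chain, were called with log2 fold changes of -3.40 ± 0.56 and -3.20 ± 0.51 (SE, adjusted p = 0.0207 and 0.0178, edgeR). The ruler proteins Ccdc39 and Ccdc40, which set the spacing of the N-DRC and the spokes, differed in call. Ccdc40 was lower with a log2 fold change of -1.06 ± 0.19 (SE, adjusted p = 0.0255, edgeR), and Ccdc39, at 38.9 CPM in T1-5 and 10.7 to 18.6 CPM in the other IUGR libraries against 32.4 to 58.1 CPM in sham, was not called (adjusted p = 0.187, edgeR).

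Of the regulators of multiciliated cells, 2 of 11 tested were called lower by edgeR, beside 1.36% of all tested genes. Of the 11, 10 had a log2 fold change below 0, 3 lay below sham without overlap, and the median was -0.67. Foxj1, the forkhead factor of motile cilia, was at 122.0, 90.3, 86.4 and 103.0 CPM in S1-4, S1-6, S3-1 and S3-4 and at 15.1, 26.5, 15.1 and 21.8 CPM in T1-1, T1-3, T1-4 and T1-5. The IUGR libraries were all far below sham, T1-5 included, and the log2 fold change was -2.35 ± 0.21 (SE, adjusted p = 0.00655, edgeR). Ccno, needed for the amplification of centrioles, was also called, with a log2 fold change of -3.81 ± 0.80 (SE, adjusted p = 0.047, edgeR). Mcidas had no overlap but was not called (log2 fold change -3.22 ± 0.72, SE, adjusted p = 0.0571, edgeR). Cdc20b was at 6.08 CPM in T1-5, within the sham range of 4.16 to 8.48 CPM, and between 0.15 and 0.922 CPM in the other IUGR libraries. Gmnc, an early regulator of the multiciliated fate, was at 21.4 CPM in T1-5, within the sham range of 17.8 to 22.4 CPM, and between 0.421 and 3.5 CPM in the other IUGR libraries (adjusted p = 0.63, edgeR). Rfx3, a member of the RFX family, had a log2 fold change of -0.17 ± 0.14 (SE). Of 33 tested genes of the primary cilium and intraflagellar transport, none was called by edgeR, 29 had a log2 fold change below 0, 7 had an unadjusted p under 0.05 (11.1% of all tested genes) and the median log2 fold change was -0.21. In 4 of these genes each IUGR library lay below each sham library, beside 5.06% of all tested genes.

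Markers of choroid plexus epithelium, a tissue with motile cilia that borders the hippocampus, moved with the members. Each of the 15 tested markers of the 17 in the table had a log2 fold change below 0, 4 were called lower (Cldn2, Folr1, Otx2 and Trpv4) and 12 had no overlap, with a median of -3.03. The summed level of the list was 6148 to 12871 CPM in sham and 82.5 to 1399 CPM in IUGR, and without Ttr, the transthyretin gene, it was 1422 to 2020 CPM and 71.9 to 481 CPM. Ttr, above the upper count limit and not tested, was at 10851, 6919, 9993 and 4550 CPM in S1-4, S1-6, S3-1 and S3-4 and at 25.4, 966, 10.2 and 594 CPM in T1-1, T1-3, T1-4 and T1-5. The folate receptor gene Folr1 was at 0.375 and 0.253 CPM in T1-1 and T1-4, near the level of 3 counts, at 10.9 CPM in T1-3 and 9.28 CPM in T1-5, and at 65.0 to 128.0 CPM in sham. The water channel gene Aqp1 was at 2.17 and 1.35 CPM in T1-1 and T1-4, at 29.4 and 12.2 CPM in T1-3 and T1-5, and at 109.0 to 185.0 CPM in sham (adjusted p = 0.0503, edgeR). The same pair of IUGR libraries, T1-1 and T1-4, was thus lowest for these markers and for most structural members. The median marker level was 1.67% and 0.99% of sham in T1-1 and T1-4, below the 13.6% and 16.5% of the structural members, and 20.2% and 27.7% in T1-3 and T1-5, against 26.4% and 59.8%. Their part in the lower level of the members was not tested.

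**Figure D5:**
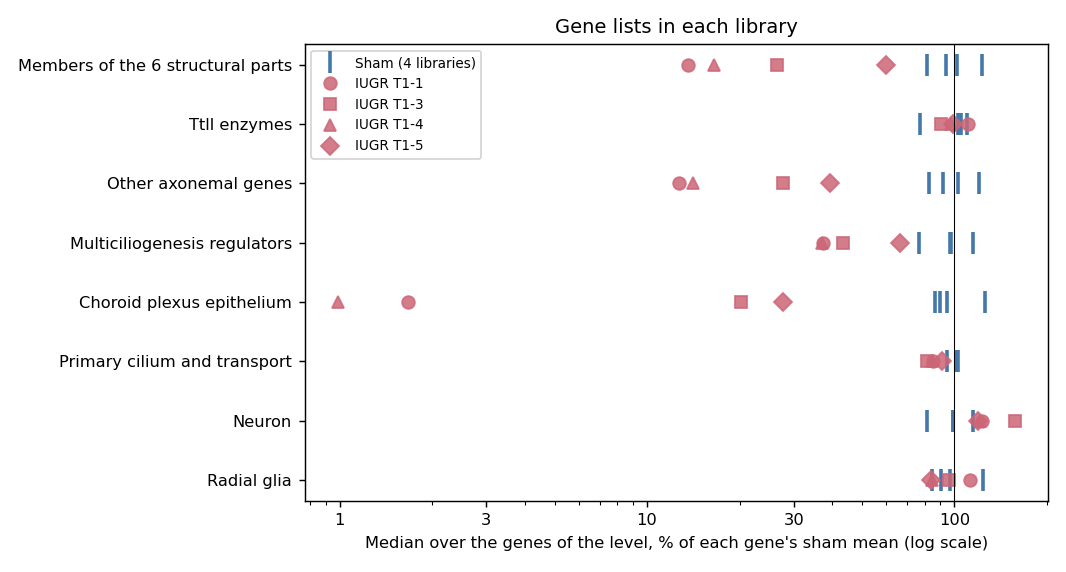
Median level of each gene list in each library as a percent of the sham mean of each gene, on a log scale; blue bars are the 4 sham libraries and red symbols the 4 IUGR libraries. The structural members, the other axonemal genes and the choroid plexus markers lie below sham in all 4 IUGR libraries. The primary cilium list also lies below sham in all 4, by less, at 81.2% to 91.3% against 94.5% to 103%. The IUGR medians of the Ttll enzymes and the radial glia markers lie between 83.9% and 112%.

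Genes of the tissue itself were detected but uneven between libraries. Hippocampus and medial pallium genes had 0 of 8 tested genes called by edgeR, 2 with an unadjusted p under 0.05, 1 below sham without overlap (Nr2f1, log2 fold change -1.20 ± 0.27, SE) and a median log2 fold change of -0.48, with 7 of 8 below 0. Their median level lay between 58.3% and 74.7% of the sham mean in the IUGR libraries and between 56.9% (S1-4) and 147% (S3-4) in the sham libraries, and its part in the levels of the members was not tested. Radial glia genes had 0 of 10 called and 0 at an unadjusted p under 0.05, with a median of -0.11. Neuron genes had 0 of 14 called, 7 at an unadjusted p under 0.05, 3 above sham without overlap (Mapt, Map2 and Syt1) and a median of 0.30. Endothelial genes had 0 of 7 called, 2 at an unadjusted p under 0.05, 1 above sham without overlap (Tie1) and a median of 0.52. Meningeal fibroblast genes had log2 fold changes above 0 in 10 of 10, with a median of 1.23, and 1, Zic1, was called higher (1.19 ± 0.24, SE, adjusted p = 0.0403, edgeR). Their median levels relative to sham were uneven over the IUGR libraries, with 610% (T1-3), 181% (T1-5), 86.3% (T1-1) and 20.5% (T1-4). Zic1, the called gene, was at 354% (T1-3), 183% (T1-5), 196% (T1-1) and 181% (T1-4), and so differed from the list in T1-4. The part of these genes in the levels of the members was not tested.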

How the data were processed

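Total RNA of E15.5 hippocampi was depleted of ribosomal RNA and sequenced as single reads. The authors deposited the counts unnormalised, as whole reads on each gene with 1 column per library; the submitters' processing notes name Novoalign 2.8 and the build mm10, and the counting program and its strand setting are not given in the sources used here. Of 16397 Ensembl identifiers, 16124 matched GENCODE M21, which gave coordinates, exon lengths and biotype. Counts of 13707 protein-coding genes whose mean count lay from 10 to under 50000 were compared, 4 IUGR against 4 sham libraries, with edgeR 4.0.16 in R 4.3.3 (TMM, library size over the tested genes, quasi-likelihood test, Benjamini-Hochberg adjustment), after testing on simulated data. CPM used the TMM-adjusted library size. Calls needed an adjusted p no higher than 0.05 and a log2 fold change no smaller than 1 in size. The members, parts and gene lists were chosen with earlier results of these data known. Per part, the text names the 3 members with the lowest adjusted p and the one with the highest mean count, the extremes of fold change and the members at the count limit (36 genes), and the other 29 rows of the families were named after their values were seen. Alternatives were DESeq2 1.42.0 size factors and Wald test, limma-voom (limma 3.58.1), other count filters, all genes, adjusted p alone, each library left out, and the sham prefixes apart. Promoter sequences are from RefSeq. A gene's part follows its known role and not its values.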

Additional observations from a re-analysis of the deposited data

Results flagged for a closer look

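Each of the 65 rows of the families, the 3 under the count limit included, was examined in each group of 4 libraries for a library far from the other 3 (Dixon's ratio above its 95% critical value). Of 130 groups, 10 met this, where chance gives about 1 in 20, and genes of the axoneme are not independent of each other. In 6 of the 10 the library was T1-5, with values above the other IUGR libraries: 27.4 CPM for Cfap43, 29.0 CPM for Cfap44, 8.59 CPM for Dnah12, 8.06 CPM for Dnah3, 26.0 CPM for Dnah11 and 1.29 CPM for Ttll6. The sham library S3-1 was low for Ttll6, at 1.10 CPM, and for Dnah1, at 7.61 CPM. The sham library S1-4 was high for Ttll13, at 2.22 CPM, and for Rsph14, also at 2.22 CPM.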

How the results depend on the processing

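The number of members called lower was 16 by edgeR, 25 by the Wald test of DESeq2, 22 by limma-voom, 7 with a mean count of at least 50 (44 members tested) and 0 by edgeR with the sham libraries of prefix S1 or of prefix S3 alone, which leave 2 sham libraries and gave 31 and 28 members lower at an unadjusted p under 0.05 (38 with all libraries). Leaving out 1 library at a time gave 3 to 31. Cfap57, Dnaic2 and Spag8 kept their call in each of these 8 fits. In these settings the count of higher members was 0. The median log2 fold change stayed below 0, from -0.81 without T1-1 and T1-4 to -1.92 without T1-5, and members without overlap numbered 19 to 42. Signs changed for members near 0. Cfap97 was at 0.01 without a count filter and 0.00 with a mean count of at least 50, at 0.01 against prefix S1 alone, at 0.00 with library sizes over all genes, and between -0.08 and 0.05 when 1 library was left out. Spag5 was between -0.20 and 0.14 when 1 library was left out (0.14 without T1-3) and at 0.02 against prefix S3 alone, and Ttll11 at -0.08 and Dnah8 at 0.13 against that prefix. Without T1-1 and T1-4, Spag9, Ttll12 and Spag7 were at -0.04, -0.11 and -0.07 and Dnah8 at 0.05. With 1 library left out, Dnah8 lay from -0.60 to 0.09, Ttll3 from -0.13 to 0.06, Ttll7 from -0.12 to 0.19, Ttll12 from -0.02 to 0.24 and Spag7 from -0.05 to 0.13. The cause of these changes was not tested. No paired analysis was possible because the labels give no replicate number shared between the groups that marks a common dam or day. Depth limits the members near 1 CPM, such as Dnaaf1, Tekt5, Ttll6 and Cfap221, whose IUGR values rest on few counts.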
